A study of Mus musculus with 24 samples.

Results

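The experiment described here compared naive mouse embryonic stem cells (ESCs) after knockdown of Mat2a with the same kind of cells after control siRNA. Its members were the 4 libraries of the Mat2a siRNA expression table, of 24 in the series: siCtr 1 and 2 against siMat2a 1 and 2, chosen by their labels. Naive ESCs, grown in 2i/LIF medium that holds them in a ground state, were transfected with a pool of siRNAs against Mat2a or with a non-targeting pool, and were kept for 2 more days after the change of medium. The study calls the 2 libraries of a group independent biological replicates, without naming the cultures, and p-values cover no more than the spread of these libraries. The sources used here did not name the ESC line of this experiment or its strain, and a siRNA pool lowers a transcript without deleting the gene. Total RNA without ribosomal RNA was sequenced, and 55385 Ensembl genes were listed with an FPKM value, the fragments per kilobase of transcript, relative to the total of the library. The other groups used for comparison were naive ESCs sorted for low or high mitochondrial membrane potential (ΔΨm), and Eed-heterozygous and Eed-null ESC lines, with 2 libraries each. The sorted cells were the tails of the signal of TMRM, a dye that mitochondria take up with their potential, and the Eed lines came from blastocysts of a cross of heterozygotes.

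MAT2A is the catalytic subunit of methionine adenosyltransferase, which joins methionine and ATP into S-adenosylmethionine (SAM). SAM is the methyl donor of nearly all methylation of histones, DNA, RNA and small metabolites, and it is also drawn on for polyamines. After a methyl group is passed on, S-adenosylhomocysteine is left, which AHCY splits into adenosine and homocysteine. Homocysteine is either methylated back to methionine or drained into cysteine. In ESCs, repressive methylation of H3K27 by PRC2, of H3K9 by SETDB1 and G9a, and of DNA holds many genes silent, among them genes of the 2-cell embryo and of the germline.

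Values are given as scaled FPKM, the deposited FPKM divided by a library factor that sets the median gene alike in the 4 libraries. The factors were 1.321 and 1.276 for siCtr and 0.9268 and 0.6401 for siMat2a, so that the scaling raised siMat2a minus siCtr log2 fold changes, by a median of 0.70 over the genes tested and by less in weak genes. On the deposited scale the FPKM of Ensembl genes summed to 386899 and 376975 in siCtr and to 232216 and 146534 in siMat2a. Estimated from the steps between low values, the libraries held 34.3 to 43.0 M counted steps over Ensembl genes, a step being the smallest part of a fragment that was counted. More genes were listed above 0 in siMat2a (36527 and 37468) than in siCtr (31473 and 33982). The 1135 olfactory receptor genes, which ESCs have no known use for, averaged 0.00923 and 0.0108 scaled FPKM in siCtr and 0.0289 and 0.0369 in siMat2a. Above 0 were 180 and 328 of them in siCtr and 377 and 427 in siMat2a. This low signal over all of these genes was higher in both knockdown libraries, and its part in the rises of weak genes was not tested. Subtracting this mean from each gene left 5344 genes higher and 5056 lower. The amount taken off was far below the 0.1 FPKM that tested genes had to reach. It could change few calls, so these counts do not settle what part it had.

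Mat2a itself, on chromosome 6 (GRCm38, 72432799 to 72439558, minus strand), stood at 36.7 and 35.3 scaled FPKM in siCtr and at 14.6 and 14.7 in siMat2a. Both knockdown libraries lay below both controls, with 40.7% of the control level left (40.6% and 40.9% by library; 24.6% on the deposited scale). The log2 fold change was -1.29 (SE 0.071, adjusted p = 0.00121 by limma over all genes tested).

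Of the other genes of the methionine cycle, AHCY's gene fell most: Ahcy went from 20.6 and 21.2 to 10.1 and 8.61 scaled FPKM (log2 fold change -1.16, SE 0.10, adjusted p = 0.00243). Ahcyl1, a relative of AHCY that acts on calcium channels, fell by 0.79 on the log2 scale. Gamt, which spends SAM to make creatine, fell from 1.32 and 1.75 to 0.651 and 0.683, and Bhmt2 fell by 0.28 on the log2 scale. Bhmt2, like Bhmt, remakes methionine from homocysteine. Mtr, methionine synthase, stood at 11.7 and 11.8 in siCtr and 14.96 and 13.9 in siMat2a (log2 fold change 0.29), Mtrr, which reactivates it, at 4.01 and 3.86 against 6.14 and 6.52 (0.67), and Bhmt at 1.41 and 1.39 against 2.01 and 1.97 (0.48). Mettl16, the m6A methyltransferase known to control splicing and decay of Mat2a RNA, stood at 4.36 and 4.39 against 6.59 and 5.74 (0.48). These 4 passed at adjusted p between 0.0058 and 0.0357 after scaling only, and on the deposited scale their log2 fold changes were -0.46, -0.07, -0.23 and -0.25. Mat2b, the regulatory subunit, was at 10.8 and 10.2 against 9.12 and 8.23 scaled FPKM and did not pass (adjusted p = 0.0656). Neither did Cbs and Cth, which drain homocysteine into cysteine, or the methionine transporter genes Slc7a5, Slc3a2 and Slc43a2. Mat1a, the liver enzyme, was listed at 0 in siCtr and at 0.0708 and 0.0717 in siMat2a and was not tested. In all, 4 of the 20 methionine cycle genes tested were higher and 5 lower, with none higher and 11 lower on the deposited scale. Without siCtr 1 or siCtr 2 there were 1 and 4 or 1 and 3.

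**Figure D1:**
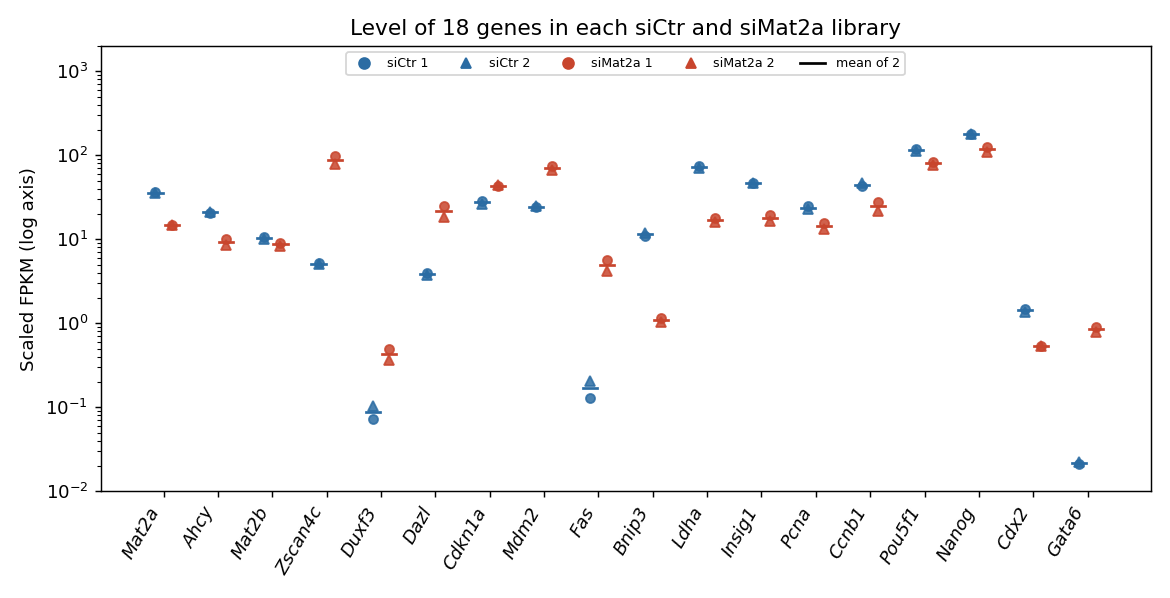
Scaled FPKM (log axis) of 18 genes in each siCtr library (blue) and siMat2a library (red). Circles are replicate 1, triangles replicate 2 and lines the mean of 2. Mat2a sits at 36.7 and 35.3 in siCtr and at 14.6 and 14.7 in siMat2a, while Zscan4c rises from about 5 to 98.3 and 79.4. Cdkn1a is higher by 0.66 on the scaled log2 scale but lies at -0.10 on the deposited scale.

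Over the whole table, 24938 genes reached 0.1 FPKM in at least 2 libraries and were tested on log2(scaled FPKM + 0.1), a scale that understates the change of weak genes. A gene present in the knockdown alone could enter through those libraries. After scaling, 5744 genes (23.0%) were higher and 4929 (19.8%) lower in siMat2a at an adjusted p under 0.05, or 42.8% in either direction. Changes of at least 2-fold were mostly rises, with 3972 genes (15.9%) higher and 749 (3.0%) lower. On the deposited scale 13.1% were higher and 36.8% lower, and 3055 genes (12.3%) were higher and 4922 (19.7%) lower on both scales. Among the 14694 protein-coding genes tested, 22.2% were higher and 25.0% lower. For 19049 genes (76.4%) the groups did not overlap.

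The direction went with the level of a gene. Among protein-coding genes with a mean under 0.3 scaled FPKM, 42.8% were higher and 2.62% lower. From 1 to 3 FPKM the shares were 23.8% and 21.5%, and at 30 FPKM or more they were 4.62% and 53.1%. Unprocessed pseudogenes (55.2% of 386 higher), lincRNAs (34.4% of 742) and loci of the TEC class, which await experimental proof, (30.2% of 1068) also leaned to rises. Counts of list members below are to be read against these shares.

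**Figure D2:**
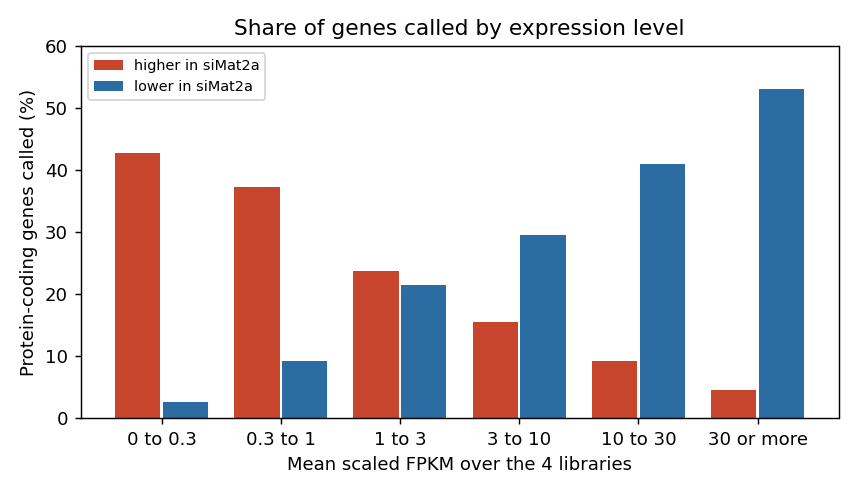
Percent of protein-coding genes called higher (red) or lower (blue) in siMat2a, by mean scaled FPKM over the 4 libraries. The share higher falls from 42.8% in the weakest genes to 4.62% in the strongest, and the share lower climbs from 2.62% to 53.1%.

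The largest rises among genes with a group mean of at least 1 FPKM were Usp17le (0.940 and 0.974 to 45.9 and 42.0 scaled FPKM, log2 fold change 5.38) and Usp17la (0.323 and 0.440 to 17.2 and 15.9, 5.12), deubiquitinase genes of a family used in the 2-cell embryo. Gm4027, Gm8332, Gm2022, Gm2035 and BB287469 followed with log2 fold changes of 4.66 to 4.83. The other 3 of the 10 were the carboxylesterase genes Ces2e (0.0506 and 0.0269 to 4.29 and 3.39) and Ces2g (0.0343 and 0.0879 to 3.99 and 4.32) and the epithelial keratin gene Krt15 (0.0387 and 0.00688 to 3.39 and 3.13). All 10 passed on both scales. Groups that did not overlap were a condition of their choice.

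The largest falls included Bnip3, a mitophagy receptor that is a classic target of the hypoxia-inducible factor HIF1. It went from 11.0 and 12.0 to 1.15 and 1.03 scaled FPKM (log2 fold change -3.29, SE 0.11, adjusted p = 0.000556). Gm45507, which fell most (by 3.45), lies within Bnip3 on the opposite strand (chromosome 7, 138890964 to 138894675), and counting without strand cannot tell them apart. Slc16a3, the lactate exporter MCT4, fell from 5.35 and 4.55 to 0.428 and 0.525, and Ndufa4l2 and Mgarp, mitochondrial proteins, fell by 2.50 and 2.23 on the log2 scale. Tpi1, a glycolytic enzyme, fell from 71.3 and 72.0 to 17.1 and 14.97. The rest were Gstm3, a glutathione transferase (18.3 and 21.0 to 3.42 and 2.84), Lgals1, galectin 1 (18.5 and 19.2 to 4.29 and 3.42), Gm2a, a lysosomal activator of ganglioside breakdown, and Ccdc136. These 10 fell on both scales.

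Genes of the 2-cell (2C) embryo rose together. Dux switches on Zscan4 genes, MERVL repeats and others in the 2-cell embryo, and a small share of ESCs enters a like state at any time. Of 68 listed 2C genes, 64 were in the table, 60 were tested and 54 were higher, 52 of them by at least 2-fold. The 90% higher stood beside 23.8% of protein-coding genes at 1 to 3 FPKM, where the list's median level lay. No member was lower, at an unadjusted p under 0.05 either. Their median log2 fold change was 3.22, against 0.04 over all genes tested. On the deposited scale 52 were higher and 3 lower, with a median of 2.50. With no filter on low values 51 of 64 were higher.

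The Zscan4 genes encode proteins with a SCAN domain and zinc fingers that act at telomeres in 2C-like cells. Zscan4c rose from 5.16 and 5.05 to 98.3 and 79.4 scaled FPKM (log2 fold change 4.09, SE 0.12, adjusted p = 0.000554), Zscan4d from 2.36 and 2.46 to 45.2 and 40.3, and Zscan4f from 7.06 and 6.55 to 125.8 and 104.7. Zscan4a rose by 3.49, Zscan4b by 4.13 and Zscan4e by 3.93 on the log2 scale. These copies are nearly identical and fragments were divided among them, so that their values share a source. In each copy both knockdown libraries stood above both controls. The groups did not overlap in 76.4% of all genes tested.

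Zfp352, a zinc finger gene of 2-cell embryos, rose from 0.135 and 0.0837 to 1.54 and 1.72 scaled FPKM. Tcstv3 rose from 0.148 and 0.208 to 2.47 and 2.50 and Tdpoz4 from 0.0767 and 0.0326 to 1.23 and 0.774. Duxf3, of the Dux family, rose from 0.0723 and 0.103 to 0.501 and 0.368 (log2 fold change 1.51, SE 0.24, adjusted p = 0.00935). Its knockdown level stayed under 1 FPKM, far below those of the Zscan4 genes. Zfp809, a zinc finger repressor of retroviruses in the list, had the smallest rise (0.51 after scaling, -0.24 on the deposited scale). Trim43b was among the 6 that did not pass, at 0.549 and 0.527 against 0.288 and 0.610.

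The MERVL retrovirus and its promoter repeat MT2_Mm drive many 2C transcripts. The mean deposited FPKM over 2600 MERVL-int loci was 0.329 and 0.324 in siCtr and 1.96 and 1.35 in siMat2a (log2 fold change 2.28, SE 0.21, adjusted p = 0.0439 over all repeat families). Over 2667 MT2_Mm loci it was 0.264 and 0.257 against 0.966 and 0.690 (1.61, adjusted p = 0.0439). In both, each knockdown library lay above both controls. With the scaling used for genes the log2 fold changes were 3.02 and 2.35 (adjusted p = 1.13e-36 and 6.41e-16 by limma). Limma borrows the spread of all 1447 families tested, so such small values do not stand for more than 2 libraries per group. As deposited, the call was lost with a replicate block (adjusted p = 0.0578) and without siCtr 1, siCtr 2 or siMat2a 2 (up to 0.12).

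The promoters of Zscan4c, Zscan4d and Zscan4f carry the same short motif and are shown because these genes reached high levels. The sequences are RefSeq promoters on GRCm38.p6, 5′ to 3′ on the strand of the gene, with matches to the core of the known Dux motif (TGATT, 2 free bases, then ATCA) on either strand in capitals.
Zscan4c (chr7:11005591-11005710, plus): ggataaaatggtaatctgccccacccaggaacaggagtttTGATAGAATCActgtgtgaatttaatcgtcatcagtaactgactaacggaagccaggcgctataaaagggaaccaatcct
Zscan4d (chr7:11166194-11166313, minus): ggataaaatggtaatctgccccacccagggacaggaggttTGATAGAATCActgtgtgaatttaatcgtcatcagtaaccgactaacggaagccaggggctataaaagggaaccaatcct
Zscan4f (chr7:11397784-11397903, plus): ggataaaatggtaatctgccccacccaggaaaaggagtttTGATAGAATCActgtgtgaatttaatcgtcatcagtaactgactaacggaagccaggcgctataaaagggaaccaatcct
A stricter form (TGATT, 1 free base, then AATCA), each match of which is also a match to the core, was found in no list member. Of the 29 list genes with a promoter in the table, 4 (13.8%) held the core, against 66 of 27025 genes (0.244%) in all. The Zscan4 copies share this stretch, so they are not separate instances, and a match is a description and not a bound site.

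**Figure D3:**
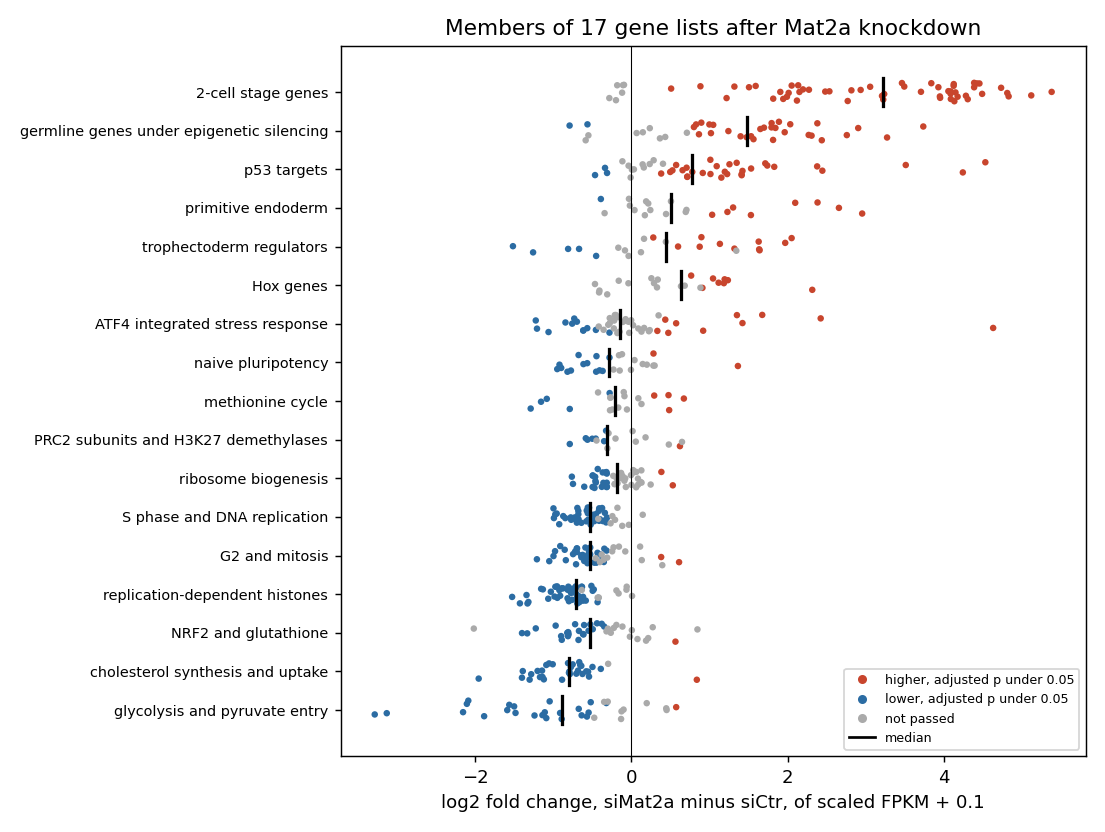
Log2 fold changes of scaled FPKM + 0.1 (siMat2a minus siCtr) for the tested members of 17 gene lists. Each point is a gene, red if higher and blue if lower at an adjusted p under 0.05, grey if not passed, and the bar is the list median. The 2-cell list has a median of 3.22 and the germline list 1.48, while S phase (-0.53), histones (-0.71), cholesterol (-0.79) and glycolysis (-0.89) lie to the left. On the deposited scale the points lie lower, by a median of 0.70 over all genes tested.

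Of 33 known activators and repressors of Dux tested, 3 were higher and 15 lower (none and 17 as deposited), the lower ones led by Lin28a (23.9 and 23.6 to 12.1 and 9.69 scaled FPKM), an RNA-binding protein that represses Dux in the nucleolus, Chaf1b, a subunit of the chromatin assembly factor CAF-1 (13.9 and 13.7 to 7.16 and 6.64), Pcgf6 of the PRC1.6 complex (8.80 and 8.08 to 4.92 and 4.46) and Nr5a2 (23.0 and 23.6 to 16.03 and 13.2). There were 4 lower and none higher without siCtr 1 or siCtr 2. Over all 4 libraries the shares were 45.5% lower and 9.09% higher. They lay near the 41.0% and 9.3% of protein-coding genes at 10 to 30 FPKM, where the list's median level fell. Setdb1, which methylates H3K9 at retroviruses, was at 31.6 and 31.2 against 34.1 and 33.0 and did not pass.

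Genes for the enzymes that spend SAM were called in both directions after scaling, but on the deposited scale none was higher in the lists of lysine (13 lower), arginine (3 lower) and RNA (18 lower) methyltransferases. Of 33 histone lysine methyltransferase genes, 8 were higher and 10 lower, but 1 and 4 without siCtr 1 and 2 and 3 without siCtr 2. Prdm14, which lacks clear enzyme activity and keeps DNA methylation low in naive ESCs, fell from 14.1 and 14.1 to 8.70 and 7.76 scaled FPKM, and Ehmt2, the H3K9 enzyme G9a, from 23.2 and 22.9 to 14.8 and 15.5. Kmt2c (0.74) and Suv39h1 (0.61) were higher after scaling but lay at -0.01 and -0.13 on the deposited scale. Of 11 arginine methyltransferase genes, 2 were higher and 3 lower: Carm1 fell from 37.4 and 38.5 to 21.2 and 20.4 and Prmt5 from 28.4 and 29.8 to 20.9 and 19.06, while Prmt2 rose from 0.521 and 0.479 to 1.15 and 1.13 and Prmt6 by 0.65 (-0.09 on the deposited scale). RNA methyltransferases had 2 higher and 10 lower of 37, among them Mettl8 (-0.90) and Mettl5 (-0.52). Nsun3 (0.66) and Mettl6 (0.61) were the 2 that were higher, at -0.05 and -0.12 on the deposited scale. Leaving out siCtr 1 or siCtr 2, 1 RNA methyltransferase was lower and none higher, and without siCtr 2 the arginine enzymes had 1 higher and 1 lower.

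The DNA methylation list had 2 genes higher and 7 lower of 18 (1 and 10 as deposited). Dnmt3l, a cofactor of the de novo DNA methyltransferases that is also a germline gene, rose from 1.40 and 1.53 to 7.65 and 8.19 scaled FPKM (log2 fold change 2.36, SE 0.10, adjusted p = 0.000938). Uhrf1, which brings DNMT1 to replicating DNA, fell from 110.0 and 108.6 to 58.5 and 52.8, and the remodeller Hells from 42.2 and 44.1 to 26.8 and 19.4. Dnmt1 fell by 0.27, Dnmt3b by 0.32 and Mbd4 by 0.54 on the log2 scale, and Dnmt3a did not pass. When siCtr 1 or siCtr 2 was left out, 2 of the 18 were lower and 1 higher.

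PRC2 sets H3K27 methylation through the core subunits EZH2 or EZH1, EED and SUZ12. Ezh2 fell from 16.1 and 16.7 to 11.8 and 10.3 scaled FPKM (log2 fold change -0.56, adjusted p = 0.011), Ezh1 from 6.54 and 6.88 to 4.62 and 4.80, and Eed from 15.7 and 16.5 to 13.7 and 12.0 (-0.32, adjusted p = 0.0472). Suz12, at 69.7 and 69.7 against 57.9 and 45.2, did not pass (adjusted p = 0.0516). Of the accessory subunits, Epop fell from 64.3 and 55.3 to 35.8 and 33.2 and Mtf2 from 38.1 and 38.9 to 29.3 and 22.5. Aebp2 was the list's only higher member after scaling (0.62) and lay at -0.12 on the deposited scale. Kdm6b, an H3K27 demethylase, fell by 0.46. In all 7 of 17 were lower (41.2%, against 41.0% of protein-coding genes at 10 to 30 FPKM, where the list's median level lay), but without siCtr 1 it was 2, without siCtr 2 it was 1 and without siMat2a 1 it was 11. PRC1, which can bind this mark, had 2 higher and 7 lower of 26 (none and 10 as deposited), with Pcgf6, Pcgf1 (-0.73) and Auts2 (-0.63) lower and Phc3 higher (0.64, but -0.09 on the deposited scale). The 26.9% of PRC1 genes lower lay near the 29.5% of protein-coding genes at 3 to 10 FPKM, their median level. Its lower members were 4 without siCtr 1, 2 without siCtr 2 and 11 without siMat2a 1, and its higher members 8 without siMat2a 2.

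Germline genes that ESCs keep silent by DNA methylation, H3K9 methylation and PRC1.6 also rose together. Of 39 tested, 29 were higher and 2 lower, and the median was 1.48 on the log2 scale, while on the deposited scale 18 were higher and 4 lower. The 74.4% higher stood beside 23.8% of protein-coding genes at 1 to 3 FPKM, where the list's median level lay. Olfactory receptor genes, of which 54 of 1135 reached the level for testing, had 40 higher and 1 lower, with a median of 1.53. Weak genes of both kinds could enter through the knockdown libraries alone, which favours rises. Whether the rise was particular to germline genes thus cannot be read from these shares. Taf7l, a testis form of a TFIID subunit, rose from 0.152 and 0.101 to 3.57 and 2.35 scaled FPKM (log2 fold change 3.74, SE 0.26, adjusted p = 0.00168). Tex101, a germ cell surface protein, rose from 0.0309 and 0.0493 to 1.69 and 0.922, Magea4 from 0.216 and 0.172 to 2.55 and 1.72 and Dmrtb1 from 0.176 and 0.157 to 1.81 and 1.60. Dazl, an RNA-binding protein that germ cells need, reached the highest level of these, from 4.02 and 3.75 to 24.9 and 18.5. Mael (1.24 and 1.04 to 5.40 and 4.54) and Ddx4 (1.01 and 0.999 to 4.04 and 2.804), of the piRNA pathway, and Sycp3, of the meiotic chromosome axis (1.06 and 1.30 to 3.87 and 2.75), rose as well. In each of these 8 genes the groups did not overlap, as in 76.4% of all genes tested. The 2 lower members were Nanos3 (-0.79) and Tuba3a (-0.56).

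The promoters of Mael and Taf7l are shown for the E-box CACGTG, the letters bound by the MGA and MAX subunits of PRC1.6, in capitals (RefSeq, GRCm38.p6, strand of the gene). CACGTG reads the same on both strands.
Mael (chr1:166238875-166238994, minus): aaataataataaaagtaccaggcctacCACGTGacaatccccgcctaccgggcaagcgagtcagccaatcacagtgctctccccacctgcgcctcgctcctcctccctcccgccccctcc
Taf7l (chrX:134476491-134476610, minus): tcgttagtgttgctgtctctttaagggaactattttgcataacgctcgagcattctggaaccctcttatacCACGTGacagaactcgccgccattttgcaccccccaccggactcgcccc
The box was found in 14 of 40 germline promoters (35.0%) and in 2187 of 27025 promoters (8.09%) in all. Among the 653 genes of at least 1 FPKM that rose by 2-fold or more it was found in 11.3%, and among the 12239 tested genes in 11.1%.

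Among pluripotency genes, Pou5f1, which encodes OCT4, stood at 118.7 and 112.9 scaled FPKM in siCtr and 82.8 and 77.3 in siMat2a (log2 fold change -0.53, SE 0.089, adjusted p = 0.0106). Nanog fell from 179.2 and 176.6 to 126.2 and 109.4 (-0.60) and Esrrb from 98.1 and 97.7 to 75.7 and 67.7. Sox2 (120.6 and 115.9 against 108.2 and 90.6), Zfp42 (85.0 and 79.4 against 72.4 and 67.9) and Klf4 (59.0 and 56.8 against 58.5 and 56.8) did not pass. All 6 of these defining ESC markers thus stayed above 50 scaled FPKM in the knockdown.

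Of 25 naive pluripotency genes, 13 were lower (52%) and 2 higher, a share near the 53.1% of all protein-coding genes at 30 FPKM or more, in which the list's median level of 31.4 FPKM fell. Gbx2 fell from 19.13 and 20.4 to 10.5 and 9.87 scaled FPKM, Fgf4, the growth factor through which ESCs drive ERK, from 51.0 and 51.4 to 28.8 and 25.3, Dppa5a from 213.8 and 207.1 to 121.2 and 105.1 and Klf2 from 139.1 and 134.5 to 75.6 and 79.6. Dppa3, also called Stella, an oocyte and early embryo protein that protects against DNA methylation, rose from 1.47 and 1.04 to 2.75 and 4.05. Core and formative genes had 9 lower (40.9%) and 3 higher of 22, again near the 41.0% at their median level. Lef1, a factor at the end of the Wnt pathway, fell from 4.27 and 4.37 to 1.59 and 1.58, Zic5 from 4.40 and 4.48 to 2.12 and 1.66 and Zic2 from 24.5 and 24.3 to 12.1 and 10.1. There were 7 naive and 4 core and formative genes lower without siCtr 1 or siCtr 2.

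Genes of the primitive streak and of Nodal signalling had 10 lower and 4 higher of 22 (11 and 3 as deposited). Cdx1 fell from 26.9 and 28.1 to 8.58 and 6.33 scaled FPKM (log2 fold change -1.88, SE 0.16) and T, the streak factor Brachyury, from 5.65 and 5.42 to 1.39 and 1.60. The Nodal antagonists Lefty1 (14.2 and 13.2 to 3.84 and 4.41) and Lefty2 (23.2 and 22.2 to 9.16 and 7.81) fell alike. Mesp2 (0.110 and 0.205 to 2.46 and 1.96) and Wnt8a (0.205 and 0.0727 to 1.29 and 1.82) rose instead.

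Trophectoderm regulators, the factors that set the outer layer of the blastocyst, split. Of 23, 11 were higher (47.8%, against 23.8% at 1 to 3 FPKM, their median level) and 5 lower (21.7%, against 21.5%). Tfap2a rose from 1.21 and 1.25 to 4.98 and 5.22 scaled FPKM, Plet1 from 0.715 and 0.796 to 2.88 and 2.28 and Id2 from 0.391 and 0.595 to 1.78 and 1.64. Cdx2, a factor on which trophectoderm depends, moved the other way, from 1.49 and 1.36 to 0.543 and 0.530 (log2 fold change -1.26, SE 0.15, adjusted p = 0.00485), as did Arid3a, from 5.56 and 5.73 to 2.13 and 1.71. Eomes and Tfap2c did not pass. On the deposited scale the list had 6 higher and 6 lower. Placental genes had 11 higher (52.4%, against the same 23.8%) and 5 lower of 21 (7 and 6 as deposited). Krt19 (0.686 and 0.349 to 7.14 and 7.25), Ascl2 (0.284 and 0.145 to 1.81 and 1.70) and Stox1 were higher and Slc16a3 lower.

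Primitive endoderm genes had 8 higher (38.1%) and 1 lower of 21 tested of 28, near the 37.3% higher among genes of their median level. Gata6, the factor that starts this lineage, rose from 0.0210 and 0.0223 to 0.899 and 0.790 scaled FPKM (log2 fold change 2.95). Dab2 rose from 0.0616 and 0.0753 to 1.09 and 0.846, Pdgfra from 0.114 and 0.170 to 1.17 and 1.14, and Lrp2 and Lamb1, a matrix protein, by 1.53 and 1.23 on the log2 scale. Sox17, Gata4 and Foxa2 did not pass, and none of these reached the levels of the pluripotency genes. Of 12 neural genes 3 were higher (25%, against 42.8% under 0.3 FPKM, their median level) and 2 lower (2 higher and 4 lower as deposited). Neurod1, a factor of neurons and endocrine cells, rose from 0.444 and 0.452 to 12.3 and 9.19 (log2 fold change 4.29, SE 0.17, adjusted p = 0.000749), and Sox21 rose while Tubb3 fell (17.9 and 17.4 to 9.73 and 9.06). Hox genes, the textbook targets of PRC2, had 8 higher and none lower of 21 tested of 39, among them Hoxc5 (0.0912 and 0.173 to 0.959 and 1.12). Their 38.1% stood beside 42.8% higher among protein-coding genes under 0.3 FPKM, where their median level lay. No Hox gene was lower at an unadjusted p under 0.05, but on the deposited scale 3 were higher and 4 lower, and without siCtr 1 or siMat2a 2 there were 4 or 5 higher. Imprinted genes had 7 higher and 9 lower of 35 (1 and 13 as deposited), from Ndn (1.77) and Peg10 (1.19) to Phlda2 (-1.26) and Rtl1 (-1.40), with 11 higher without siMat2a 2 and 5 lower without siCtr 2.

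Marker sums of other cell types in scaled FPKM showed how far such cells could be seen. Primitive endoderm markers summed to 0.799 and 0.913 in siCtr and to 3.94 and 3.56 in siMat2a (3 of 6 tested higher). Trophectoderm markers went from 3.01 and 2.87 to 5.15 and 3.66 (3 higher and 1 lower of 6) and fibroblast markers from 0.92 and 0.991 to 2.47 and 2.25 (4 higher and 1 lower of 5 tested of 8, with Dcn at 0). Neural markers summed to 12.5 and 11.3 in siMat2a, against up to 19.6 in siCtr (1 higher and 1 lower of 4). The ESC markers summed to 661 and 639 against 524 and 470 (3 of 6 lower). The macrophage and blood markers summed to 14.5 and 14.3 against 13.3 and 11.7 with none of 3 passing by limma (1 at an unadjusted p under 0.05), nearly all of it Pecam1, which ESCs express, and with the haemoglobin gene Hbb-bt at 0. Over the longer lists, 7 of 12 fibroblast genes were higher and 2 lower (5 and 3 as deposited), led by Col5a2 (3.19) and Fbn1 (2.14) against Vim (-0.83), while Col5a1 was higher by 0.68 after scaling and at -0.03 as deposited. Among macrophage and blood genes 5 of 10 were higher (3, with 1 lower, as deposited), among them Tek, a receptor of endothelial cells (2.07 and 2.29 to 11.6 and 10.6). Without any 1 library, 3 or 4 of the fibroblast genes and 1 to 3 of the macrophage and blood genes were higher. Fewer cells of a type and less RNA per cell cannot be told apart in such bulk libraries, and the part of other cells in these rises was not tested.

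Genes activated by the tumour suppressor p53 rose. p53 answers DNA damage and nucleolar stress by stopping the cell cycle or starting apoptosis. Of 43 targets tested, 30 were higher and 3 lower, and their median was 0.78 on the log2 scale, but on the deposited scale the counts were 8 and 4 and the median 0.03. After scaling, the 69.8% higher stood beside 9.3% of protein-coding genes at 10 to 30 FPKM, where the list's median level lay. Pmaip1, which encodes the death factor NOXA, rose from 0.138 and 0.131 to 6.44 and 4.38 scaled FPKM (log2 fold change 4.53, SE 0.22, adjusted p = 0.0011) and the death receptor gene Fas from 0.128 and 0.207 to 5.68 and 4.25. Perp rose from 2.76 and 2.47 to 31.8 and 29.96, the antiproliferative gene Btg2 from 9.46 and 8.97 to 54.1 and 47.3 and Plk2 from 8.37 and 8.03 to 44.4 and 41.7. These 5 rose on both scales. Mdm2, the ligase that degrades p53, stood at 23.9 and 24.9 against 74.0 and 67.6, and Bbc3, or PUMA, at 3.04 and 2.56 against 6.88 and 6.19. Cdkn1a, the cell-cycle inhibitor p21, was at 28.8 and 26.6 against 43.2 and 44.0 (log2 fold change 0.66, adjusted p = 0.0049), but at -0.10 on the deposited scale, and Ccng1 was higher by 0.71 and at -0.04. Bax was at 42.5 and 41.1 against 42.6 and 41.4 and did not pass. Trp53, the gene of p53 itself, fell from 80.0 and 81.0 to 66.3 and 62.8.

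Immediate early genes had 10 higher and 4 lower of 28, but 5 and 5 on the deposited scale. Fos rose from 0.102 and 0.158 to 3.66 and 3.52 scaled FPKM, Jun from 0.624 and 0.639 to 6.44 and 6.36 and Atf3 from 0.103 and 0.118 to 5.64 and 4.63, all on both scales, while Egr1 did not pass. Leaving out siCtr 1 or siCtr 2 gave 7 higher and none lower. Genes of the integrated stress response under ATF4 had 10 higher and 12 lower of 47, but 3 and 19 on the deposited scale. Ddit4, an inhibitor of mTORC1, rose from 5.56 and 4.43 to 28.8 and 25.5, Ddit3, or CHOP, from 1.20 and 1.53 to 4.33 and 4.78 and Gdf15 from 1.64 and 1.93 to 4.44 and 5.48. Atf4 itself was at 74.9 and 78.9 against 79.4 and 74.2, and neither it nor its targets Asns and Trib3 passed. Chac1, which degrades glutathione, and the arginine transporter gene Slc7a3 (39.9 and 41.5 to 18.8 and 16.4) fell. Without siCtr 1 or 2 this list had 6 or 5 higher and 6 or 7 lower, and without siMat2a 1 it had 11 and 21. The genes of the unfolded protein response of the ER had 1 higher and 9 lower of 26, with Xbp1, Hsp90b1, Manf and Sdf2l1 lower by 0.59 to 0.77. Their 34.6% lower was less than the 41.0% of protein-coding genes at 10 to 30 FPKM, where their median level lay. Fewer were lower without siCtr 1 or siCtr 2 and more without siMat2a 1.

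In the heat shock list 4 were higher and 8 lower of 21 (3 and 13 as deposited). The 38.1% lower lay near the 41.0% of protein-coding genes at 10 to 30 FPKM, where the list's median level fell. Cryab, a small heat shock protein of lens and muscle, rose from 0.953 and 0.791 to 20.2 and 19.2 scaled FPKM (log2 fold change 4.36) and the inducible Hspa1a from 0.425 and 0.444 to 4.30 and 3.41, whereas the constitutive Hspa8 fell from 246.9 and 246.9 to 157.3 and 127.0. NRF2 and glutathione genes had 22 of 37 lower (59.5%) and 1 higher. Gstm1 fell from 55.4 and 55.0 to 21.1 and 20.7, Gstm2 by 1.33 and Tkt, of the pentose phosphate pathway, by 0.97. Interferon genes had 8 lower, such as Oas1a (18.6 and 20.4 to 8.02 and 7.36) and Ifi35 (-1.12), and 2 higher of 25 (14 and 1 as deposited). Tap1, the peptide transporter of antigen presentation and also a p53 target, rose from 0.272 and 0.253 to 5.86 and 5.82. NF-kB genes had 7 lower and 5 higher of 15 (7 and 2 as deposited), with Bcl3 (32.3 and 33.1 to 15.4 and 14.6), Relb and Nfkb2 lower and Icam1 higher (0.89). The heat shock genes had 3 lower, the NRF2 genes 14 and the NF-kB genes 2 or 3 without siCtr 1 or siCtr 2.

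Genes of the cell cycle fell broadly. Of 48 genes of S phase and DNA replication 40 were lower and none higher, at an unadjusted p under 0.05 either, and the median was -0.53. The 83.3% lower stood beside 41.0% of protein-coding genes at 10 to 30 FPKM, where the list's median level lay. Cdc6, which licenses origins, fell from 14.6 and 14.6 to 8.02 and 7.004 scaled FPKM, the clamp gene Pcna from 24.7 and 23.0 to 15.6 and 13.2 and the helicase gene Mcm3 from 106.1 and 107.0 to 71.0 and 62.3. The falls were modest, none of them by 2-fold as tested. Without siCtr 1 or siCtr 2, 21 or 20 of the 48 were lower, without siMat2a 1 or 2 it was 43 or 38, and on the deposited scale 44.

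Genes of G2 and mitosis had 38 lower (73.1%, against 41.0% at 10 to 30 FPKM, their median level) and 2 higher of 52. The checkpoint kinase gene Bub1 fell from 37.4 and 39.4 to 19.3 and 14.2 scaled FPKM, Kif2c from 15.2 and 14.9 to 7.60 and 6.86, Ccnb1, a cyclin of CDK1, from 42.8 and 46.4 to 28.0 and 21.7, its paralog Ccnb2 from 60.1 and 63.6 to 33.9 and 29.0 and Cdk1 from 23.2 and 23.5 to 14.9 and 13.6. Without siCtr 1 or 2, 19 of the 52 were lower. G1 cyclins and kinases had 12 lower (75%, against 41.0% at the same level) and 1 higher of 16. Ccne1 (42.6 and 44.1 to 22.1 and 18.4), Cdc25a, E2f3 and Cdk2 were lower by 0.84 to 1.10 on the log2 scale.

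The promoter of Ccnb2 is shown for TTTGAA, the letters of the CHR element through which the DREAM complex silences mitotic genes, in capitals (RefSeq, GRCm38.p6, strand of the gene). This match begins 167 bases before the annotated start, and it is a description and not a bound site.
Ccnb2 (chr9:70421642-70421761, minus): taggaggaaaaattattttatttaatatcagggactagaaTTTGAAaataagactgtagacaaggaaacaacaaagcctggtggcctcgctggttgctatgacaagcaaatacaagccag
TTTGAA or its other strand was found in 30 of 43 promoters of the G2 and mitosis list (69.8%) and in 20.2% of all 27025. The letters were chosen after the values were seen. The 288 genes of at least 1 FPKM that fell by 2-fold or more held them in 12.5%, and the 12239 tested genes in 14.9%.

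CDK inhibitors and pocket proteins had 6 higher and 5 lower of 20, but 1 and 8 on the deposited scale. Rb1, the retinoblastoma gene, rose from 4.72 and 4.90 to 13.8 and 11.3 scaled FPKM and its relative Rbl2 from 1.18 and 1.16 to 2.06 and 2.46, both after scaling only, while Cdkn1b, or p27, fell from 14.96 and 14.8 to 8.82 and 7.26. Replication-dependent histone genes had 44 lower and none higher of 52, nor any higher at an unadjusted p under 0.05, with a median of -0.71. Their 84.6% lower stood beside 53.1% of protein-coding genes at 30 FPKM or more, where their median level lay. Hist1h2af fell from 120.4 and 106.6 to 52.0 and 38.3, and Hist1h2ad, Hist1h2ao and Hist1h2bm fell by 1.33 to 1.53. Histone copies share fragments, and without siCtr 1 the list had 29 lower. The CDK inhibitor list had 3 higher and 3 lower without siCtr 2. Hist1h2bm differed within siCtr by more than 2-fold, at 60.2 and 140.1.

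Glycolysis genes fell. The pathway breaks glucose down to pyruvate, and HIF1 and MYC are its known activators. Of 33 genes 23 were lower, 15 of them by at least 2-fold, and 1 was higher, with a median log2 fold change of -0.89. Ldha, which turns pyruvate into lactate, fell from 74.3 and 69.7 to 17.7 and 16.04 scaled FPKM (log2 fold change -2.09, SE 0.088, adjusted p = 0.000865), Aldoc from 5.87 and 5.66 to 1.23 and 1.30, Pfkl from 15.8 and 14.4 to 4.08 and 3.95, Pgk1 from 39.6 and 40.0 to 13.5 and 12.8, Eno1 from 71.7 and 72.9 to 26.5 and 24.5 and Aldoa from 253.4 and 255.6 to 96.4 and 85.8. Gapdh (43.2 and 43.6 to 19.3 and 20.9) and the glucose transporter gene Slc2a1 (83.1 and 79.9 to 38.4 and 35.5) fell too. Hk2 fell less, from 62.9 and 59.0 to 45.6 and 39.5. Pdk4, which shuts pyruvate out of the TCA cycle, was the higher member (0.57, but -0.15 on the deposited scale). The groups did not overlap in any gene named here, as in 76.4% of all genes tested. Most of the 33 stayed lower without siCtr 1 or siCtr 2. Vegfa, another known HIF1 target, fell from 1.60 and 1.28 to 0.637 and 0.577.

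The promoters of Bnip3, Slc16a3 and of 2 enzyme genes are shown with ACGTG, the core of the hypoxia response element, on either strand in capitals (RefSeq, GRCm38.p6, strand of the gene). Every CACGTG E-box holds this core.
Bnip3 (chr7:138909535-138909654, minus): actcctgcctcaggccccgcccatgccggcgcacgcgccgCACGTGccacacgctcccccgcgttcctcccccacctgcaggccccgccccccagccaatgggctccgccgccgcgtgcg
Ldha (chr7:46845619-46845738, plus): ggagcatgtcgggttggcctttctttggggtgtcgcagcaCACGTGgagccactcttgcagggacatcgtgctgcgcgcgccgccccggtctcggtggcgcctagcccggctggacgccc
Slc16a3 (chr11:120948947-120949066, plus): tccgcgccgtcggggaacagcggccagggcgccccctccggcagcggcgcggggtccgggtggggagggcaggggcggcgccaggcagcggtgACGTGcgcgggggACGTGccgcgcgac
Pgk1 (chrX:106186910-106187029, plus): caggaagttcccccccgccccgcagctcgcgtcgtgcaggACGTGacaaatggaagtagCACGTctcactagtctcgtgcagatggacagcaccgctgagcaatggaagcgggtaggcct
The core was found in 20 of 32 glycolysis promoters (62.5%) and in 21.8% of all 27025 promoters. Among genes of at least 1 FPKM that changed by 2-fold or more, 30.2% of the 288 that fell and 22.8% of the 653 that rose held it. Of the 12239 tested genes 27.6% did. It too was chosen after the values were seen.

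Cholesterol synthesis genes were nearly all lower, with 31 of 33 lower (93.9%, against 41.0% at 10 to 30 FPKM, their median level) and 1 higher. Its genes are switched on by SREBP2 when sterols run low. Insig1, the sterol sensor that holds SREBP in the ER, fell from 46.8 and 47.2 to 19.2 and 16.3 scaled FPKM (log2 fold change -1.40), and the synthesis enzyme genes Nsdhl and Fdps fell by 1.39 and 1.30. Srebf1 (31.5 and 30.9 to 16.9 and 16.7) fell more than Srebf2 (38.6 and 37.8 to 27.2 and 25.2). Scap, which escorts SREBP to the Golgi, was the higher gene, at 6.20 and 6.15 against 11.0 and 11.2, and did not pass on the deposited scale (0.09). Of the list's promoters 19 of 23 (82.6%) held CCAAT on either strand, against 41.1% of all, letters that were likewise chosen after the values were seen. The median was -0.79, and without siCtr 1 or 2 the list had 24 or 22 lower.

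Other metabolic lists moved less. The shares lower were 35.8% in the respiratory chain and 28.2% in lysosome and autophagy genes, below the 41.0% of protein-coding genes at 10 to 30 FPKM, their median level. Polyamine and salvage genes (60.9%) lay above that share. Fatty acid oxidation (42.9%) and serine, glycine and folate genes (55.6%) lay above the 29.5% at 3 to 10 FPKM, their median level. Fatty acid oxidation (15 lower and 2 higher of 28 as deposited) had 12 lower, among them Cpt1a, which lets long-chain fatty acids into mitochondria (18.3 and 19.04 to 8.96 and 6.97 scaled FPKM), and Ehhadh (-1.48), and 5 higher of 28, led by the thioesterase genes Acot2 (0.531 and 0.539 to 3.46 and 2.32) and Acot1. Nuclear genes of the respiratory chain had 19 lower (35.8%) and 1 higher of 53, with Sdhb, Ndufs7, Atp5o and Ndufa10 lower by 0.57 to 0.86 and the rest by less, and without siCtr 1 or 2 it was 4 or 3 lower. The 15 genes of the mitochondrial genome are listed at 0 in all 4 libraries. Serine, glycine and folate genes, which supply the methyl groups that remake methionine, had 15 lower and 2 higher of 27 (19 and none as deposited). Shmt2 fell from 47.2 and 46.3 to 23.7 and 21.1, Mthfd1l from 17.98 and 17.2 to 10.3 and 9.48 and Psph from 4.24 and 3.76 to 2.61 and 2.06. Polyamine and methionine salvage genes, which also draw on SAM, had 14 lower, such as Oaz1 (-1.02), Paox (-0.93) and Dhps (-0.86), and 1 higher of 23, Azin2 (0.756 and 0.853 to 2.42 and 2.55). Lysosome and autophagy genes had 11 lower and 5 higher of 39 (17 and none as deposited), with Glb1 (25.7 and 25.3 to 9.75 and 8.82) lower and Ctsd (44.3 and 43.4 to 117.0 and 107.1) and Gusb higher, these last after scaling only. Leaving out siCtr 1 or siCtr 2 gave 8 or 6 lower folate genes, 6 or 4 polyamine genes, 6 or 5 fatty acid genes and 7 lysosome genes, and leaving out siMat2a 1 gave 16 lysosome genes lower and 8 higher.

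Ribosome and translation genes were called lower about as often as other genes of their level. The shares lower were 43.1% in ribosome biogenesis and 45.7% in ribosomal proteins, against 41.0% at 10 to 30 FPKM, and 57.1% in translation factors, against 53.1% at 30 FPKM or more. The snoRNA host genes (47.1%) and the MYC network (42.9%) lay above the 29.5% at 3 to 10 FPKM, their median level. Ribosome biogenesis had 22 lower and 2 higher of 51, with Npm1 (120.9 and 125.8 to 78.4 and 67.4 scaled FPKM), Dkc1 (-0.75) and Noc4l (-0.60) lower and Utp20 higher (0.53, but -0.22 on the deposited scale). The median was -0.19, and without siCtr 1 or 2 it was 2 or 3 lower. Cytosolic ribosomal protein genes had 37 lower and 1 higher of 81, among them Rpl22l1, Rpl6 and Rpl27 (-0.66 to -0.76), with 10 or 8 lower without siCtr 1 or 2 and 57 without siMat2a 2. Translation factors and tRNA synthetases had 20 lower and none higher of 35, with Vars at -0.92 and Qars going from 30.04 and 28.8 to 15.2 and 14.2 scaled FPKM, and snoRNA host genes 8 lower and none higher of 17, with Snhg5, Zfas1, Snhg3 and Snhg1 at -0.66 to -1.13. In neither was a member higher at an unadjusted p under 0.05. Without siCtr 1 or siCtr 2 there were 5 translation genes lower (31 without siMat2a 1) and 4 or 3 snoRNA hosts. In the MYC network 6 of 14 were lower, among them Mxi1, Mycl and Mxd3, and Mxd4 was higher (0.369 and 0.301 to 1.10 and 1.22). Myc itself was at 3.91 and 3.90 against 4.86 and 3.81 and did not pass, and without either siCtr library 2 genes of its network were lower.

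The effect of the knockdown was set against that of low ΔΨm, which marks the spontaneously quiescent ESCs of the study, as a contrast in 1 fit of both experiments, each scaled by itself. The effects differed above 0 in 16.7% of the 20482 genes tested and below 0 in 19.2%. Of 55 2C genes, 7 differed above and 27 below, with medians of 3.53 after knockdown and 4.11 in low-ΔΨm cells. In the germline list 27 of 35 members differed above 0 and 2 below, with medians of 1.48 and -0.26. Glycolysis (medians -0.81 and -0.02, 22 of 33 below 0), cholesterol (-0.71 and -0.29, 24 of 33 below) and histones (-0.63 and 0.19, 41 of 52 below) lay lower after knockdown. p53 targets had like medians in both (0.86 and 0.97), with 11 of 43 differing above and 10 below.

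Against the effect of Eed loss, which removes PRC2 activity, 21.3% of 23441 genes differed above 0 and 20.6% below. 2C genes rose further after knockdown (40 of 60 above 0, medians 3.23 and 1.67). Germline genes had medians of 1.49 and 1.12, with 14 of 39 differing in each direction. Hox genes rose further in the Eed-null lines (14 of 21 below 0 and none above, medians 0.65 and 2.32), and primitive endoderm genes had 7 of 21 below and 4 above (medians 0.52 and 1.11). p53 targets differed above 0 in 34 of 43 (medians 0.80 and -0.34), glycolysis below 0 in 25 of 33 (-0.87 and 0.23) and cholesterol below 0 in 26 of 33 (-0.78 and 0.26). The lines differ from the siRNA cells in derivation as well as in Eed, and this cannot be told apart from the genotype.

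**Figure D4:**
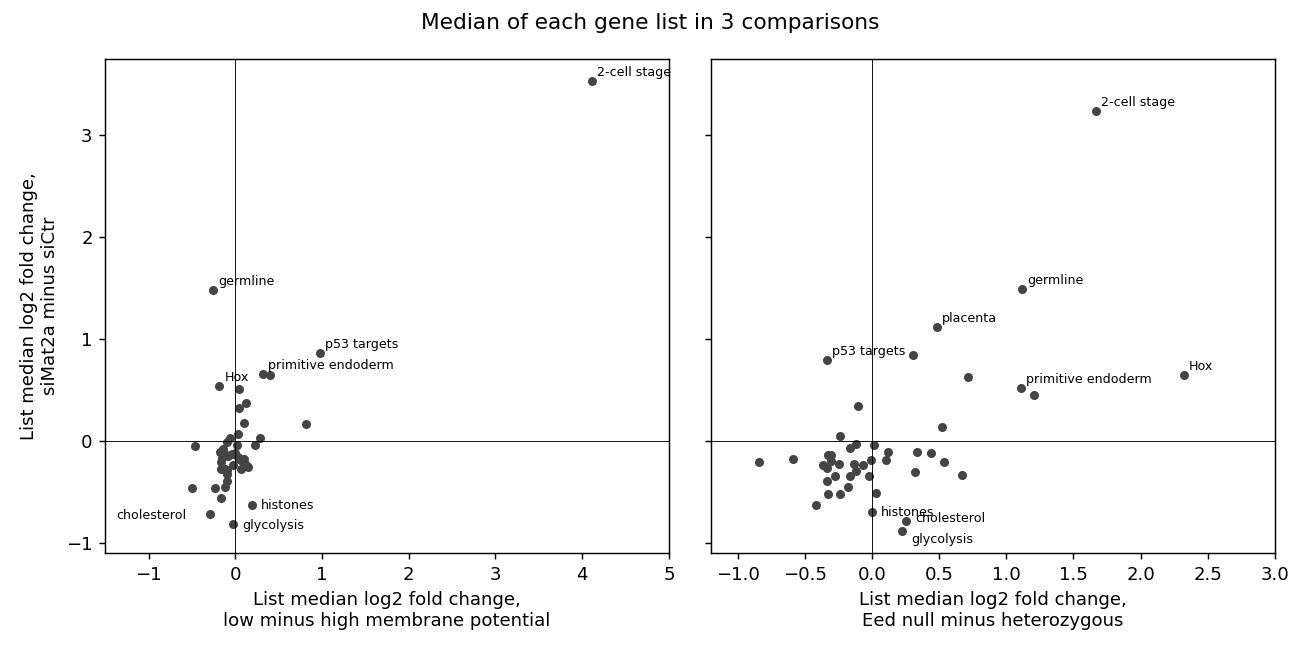
Median log2 fold change of each gene list after Mat2a knockdown (vertical) against low minus high ΔΨm (left) or Eed-null minus heterozygous (right), over the genes tested in both. Each point is a list. The 2-cell list lies high on both axes, the germline list at 1.48 against -0.26 on the left and 1.49 against 1.12 on the right, and glycolysis and cholesterol lie below 0 on the vertical axis alone on the right. Vertical values would be lower on the deposited scale.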

How the data were processed

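Total RNA of the 4 libraries was processed by the authors, who trimmed reads, aligned them to mm10 with ERCC sequences with TopHat2 2.1.1, removed duplicates with SAMtools 1.9 and counted fragments per gene without strand, dividing those that fit several genes or places, so that near-identical copies share counts. FPKM values from edgeR were deposited by the authors, for Ensembl genes and for repeats annotated with HOMER. Their own tests used ERCC spike-ins, for which values are listed for the sorted cells but not for these 4 libraries, so none were used here.

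Here symbols came from GENCODE vM21 (55144 of 55385 genes matched). Each library was divided by its median ratio over tested genes. Genes with at least 0.1 FPKM in at least 2 libraries entered limma 3.58.1 (R 4.3.3, intensity trend) as log2(FPKM + 0.1), and p-values were adjusted by Benjamini-Hochberg across these genes and called under 0.05. Repeat families of at least 10 loci were tested on the log2 of the mean deposited FPKM + 0.01. Comparisons with sorted and Eed cells were contrasts in 1 limma fit of 8 libraries each. Ddit3, Aldoa and Atp5o have a pair of overlapping gene entries, of which 1 was counted. The code was tested on simulated data. Some list members are not reported here by name.

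Members and gene lists were chosen with earlier results of these data known. Named genes were the methionine cycle list, the 10 largest rises and falls with non-overlapping groups and a mean of at least 1 FPKM in a group, up to 4 members of each list with the largest change among those past the threshold, and 18 fixed genes. The following were chosen after their values were seen: 58 further genes, the motifs as stated, the families and Lefty1 beside Lefty2. The alternatives were other scalings, filters and pseudocounts, a fit without trend, blocks and leaving out each library.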

Additional observations from a re-analysis of the deposited data

Results flagged for a closer look

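In 20 genes the effect of Mat2a knockdown differed most from that of low ΔΨm or of Eed loss, by the test of the difference itself (limma contrast, adjusted p from 1.51e-05 to 0.000721). They were the 5 largest differences in each direction in each comparison. Differences are on the log2 scale, siMat2a effect minus the other, and levels are scaled FPKM.

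Against low ΔΨm, Bnip3 differed by -4.18. It fell from 11.0 and 12.0 after knockdown and stood at 0.292 and 0.276 in high and 0.645 and 0.665 in low ΔΨm, so that the control levels of the experiments were far apart. Gm45507, on its opposite strand, differed by -4.63 and Gm16439 by -4.06. Lefty1 differed by -4.08, with a fall after knockdown and a rise from 1.56 and 1.74 to 9.09 and 9.95 in low ΔΨm. Gm11238, at -4.05, rose from 0.0141 and 0.0285 to 2.54 and 3.15 in low ΔΨm. On the other side stood Gm17155 (6.09), Gm9732 (5.71) and Gm17154 (5.67). Magea4, a cancer-testis antigen, differed by 5.83, rising after knockdown and falling from 6.30 and 5.69 to 0.720 and 0.760 in low ΔΨm. Cryge, a lens crystallin, differed by 5.69, from 0.0886 and 0.125 to 2.63 and 1.77 after knockdown against 4.92 and 5.85 to 0.969 and 1.28.

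Against Eed loss, Neurod1 differed by 7.64, rising after knockdown and falling from 5.26 and 4.66 to 0.486 and 0.303 in the null lines. Ptgs2, the inducible prostaglandin synthase, differed by 5.77, from 0.0522 and 0.0634 to 3.55 and 2.46 after knockdown against 1.98 and 1.95 to 0.661 and 0.571. AC122497.1 (6.47) and Gm17204 (6.01) differed in the same direction, and so did Gm14130 (5.77), which fell in both but from 21.1 and 23.8 to 0.125 and 0.0365 with Eed loss. Cdx1 differed by -4.64, falling after knockdown and rising from 2.23 and 2.24 to 15.6 and 15.02 in the null lines. Mybpc3 (-5.01), a muscle protein, and Cldn3 (-4.80), a claudin, moved in the same opposite ways. Gm6218 (-6.79) rose from 0.374 and 0.488 to 41.2 and 47.7 with Eed loss, and Gm27898 (-6.98), listed at 0 in both siMat2a libraries, rose there from 0 to 2.21 and 2.20.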

How the results depend on the processing

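On the deposited scale 3257 genes were higher and 9186 lower, 130 list members were higher, and the effect differed from that of low ΔΨm in 919 genes above and 8606 below 0 and from that of Eed loss in 1442 and 8311. With at least 1 FPKM in 2 libraries, which tests fewer genes, 3476 were higher and 3180 lower. Leaving out 1 library gave 3522 to 5516 higher and 1815 to 6370 lower (3617 and 1995 without siCtr 1, 3522 and 1815 without siCtr 2). Against low ΔΨm it gave 2355 to 4146 above and 2670 to 5208 below 0, and against Eed loss 3508 to 5118 and 3553 to 5257. The lone control left is assumed to vary like the knockdown pair. MERVL-int kept its log2 fold change of 2.28 in a paired fit with a replicate block (adjusted p = 0.0578) and lay between 2.02 and 2.55 without 1 library. MT2_Mm stood at 1.61 with the block (adjusted p = 0.0578) and between 1.37 and 1.85.

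The sources used here do not say whether libraries of the same number were prepared together. Deviations of same-numbered libraries from their group means had a correlation of -0.118 across genes with 1 FPKM or more. With 2 libraries per group this value cannot settle the pairing. The replicate block gave 5713 genes higher and 4357 lower, and crossed pairs, added after seeing the data, 6138 and 5039. Upper-quartile scaling gave 6541 and 3971. Scaling to ERCC spike-ins was not run.

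Of 291 named genes tested, 17 changed direction on the deposited scale, losing their call: Mtr -0.46, Mtrr -0.07, Bhmt -0.23, Mettl16 -0.25, Kmt2c -0.01, Suv39h1 -0.13, Prmt6 -0.09, Nsun3 -0.05, Mettl6 -0.12, Aebp2 -0.12, Phc3 -0.09, Utp20 -0.22, Col5a1 -0.03, Cdkn1a -0.10, Ccng1 -0.04, Pdk4 -0.15 and Zfp809 -0.24. No named gene changed direction past the threshold in the other alternatives, while 35 lost their call without siCtr 1 and 38 without siCtr 2. The cause was not tested, and depth limits the genes below 0.1 FPKM.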

Other observations

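Several gene families outside the lists, chosen after their values were seen, had more members higher than lower. Many members were weak, and 42.8% of protein-coding genes under 0.3 FPKM and 37.3% from 0.3 to 1 FPKM were higher. A group mean of 1 FPKM was reached by 6 collagen (5 higher), 5 Rhox (5) and 6 Pramel genes (5). It was reached by 4 crystallin (3), 5 keratin (3), 2 Wnt (2) and 3 carboxylesterase genes (3). Collagen genes had 17 higher and none lower of 23 tested (13 higher on the deposited scale). The reproductive homeobox genes Rhox had 10 higher of 13 and the Pramel genes, used in germ cells and early embryos, 7 of 8, again with none lower. Lens crystallin genes had 8 higher and none lower of 12 (8 higher and 1 lower as deposited), keratins 8 higher and 1 lower of 14, and Wnt ligands 7 higher and 1 lower of 9. The 4 carboxylesterase genes tested were all higher on both scales, with a median log2 fold change of 4.31.

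Zinc finger genes named Zfp had 60 higher and 48 lower of 371, and 9 and 132 on the deposited scale. Protocadherins had 1 higher and none lower of 21. Sense intronic transcripts had 28.1% of 171 higher and 0.585% lower, and their median lay at 0.382 in siMat2a 1 and 0.933 in siMat2a 2 relative to the siCtr mean. These values were not tested further.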
